A study of Monodelphis domestica and Mus musculus with 2 samples.

Results

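Sst interneurons of the opossum primary visual cortex (V1) were the 84 cells that carried the Sst subclass label together with the GABAergic class label. They came from 4806 cells that passed the authors' filter in 3 V1 regions, of which 331 had the GABAergic class label, so that Sst cells were 25.4% of that class (95% interval 20.8 to 30.4). This share describes labelled cells only, since the study did not quantify cell densities from Stereo-seq because transcripts may drop out. The opossum sample held 80369 cells, and the opossum and mouse samples together held 200608. Expression was measured by Stereo-seq, a spatial method in which RNA from a frozen section is captured on a patterned chip and molecules, counted as unique molecular identifiers (UMIs), are assigned to segmented cells. The opossum (*Monodelphis domestica*) was 1 adult male of about 6 months from a laboratory colony, and its frozen tissue, cut at 10 µm, had an RNA integrity number of 7.1, lower than that of the mouse. The mouse, used here only for values set beside those of the opossum, was 1 adult wild-type C57BL/6J male of about postnatal day 40. No treatment was given to either animal in the labels. The V1 regions came from coronal slices of that 1 opossum embedded in a shared block. The study reports fewer sections than regions for the opossum, so some regions share a section, and which ones is not given here. The regions are not replicate animals, so no test was made, and all intervals cover counting error only.

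Somatostatin-expressing interneurons are inhibitory cells that arise in the medial ganglionic eminence (MGE), as Pvalb interneurons do. They release GABA and the peptide somatostatin, and many of them, the Martinotti cells, send axons to layer 1, where they inhibit the distal dendrites of pyramidal neurons. Pvalb interneurons, in contrast, mostly inhibit the cell bodies and proximal axons of their targets.

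The labels had been transferred from single-nucleus profiles by expression, so differences in expression between labelled groups describe those groups and are not independent evidence for them. Position was not used by the labels. Of all 171 V1 cells with the Sst subclass label, 84 had the GABAergic class label, 83 had the glutamatergic class label and 4 had the non-neuronal class label. The 84 cells were labelled over 3 rounds of decreasing stringency, 38 in round 1, 41 in round 2 and 5 in round 3, whereas none of the 83 cells of glutamatergic class was labelled in round 1. Regions 1, 2 and 3 held 28, 34 and 22 Sst cells, which were 21.9%, 23.8% and 36.7% of the GABAergic class there. The interval for region 3 was 24.6 to 50.1 and overlapped those of the other regions. Sst cells had a median of 1514 UMIs, with a lowest value of 272 and a highest value of 4393, against medians of 1665 in 197 Pvalb cells of GABAergic class, 1334 in depth-matched glutamatergic cells and 1155 in cells of non-neuronal class. The glutamatergic group consisted of 420 cells, the 5 nearest in depth to each Sst cell within its region. Levels below are UMIs of a gene per 10000 UMIs of a group. No cell barcode was shared between the opossum and mouse samples.

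Both markers of the label were high in Sst cells. SST (ENSMODG00000008503), the somatostatin precursor, had levels of 48.0, 80.8 and 43.1 in Sst cells of regions 1, 2 and 3. In Pvalb cells the levels were 2.81, 5.51 and 3.84, and in depth-matched glutamatergic cells they were 4.52, 7.66 and 7.17, so that Sst cells were highest in every region and the ranges did not overlap. Over all regions SST was at 60.9 (56.8 to 65.2) in Sst cells, 14.0-fold (11.8 to 16.8) above Pvalb cells and 9.46-fold (8.37 to 10.7) above depth-matched glutamatergic cells. The last ratio depended on the cells compared, since it was 16.2 both for glutamatergic cells matched on UMIs instead of depth and for all glutamatergic cells. GAD1 (ENSMODG00000008529), which encodes a GABA-synthesising enzyme, was at 5.54, 8.41 and 5.66 in Sst cells of the 3 regions, above depth-matched glutamatergic cells at 1.52, 3.37 and 2.02. Non-neuronal cells were at 2.74. Pooled, GAD1 was at 6.78 (5.46 to 8.33) in Sst cells and 2.44 in depth-matched glutamatergic cells, a ratio of 2.78 (2.11 to 3.63). In Pvalb cells GAD1 was at 14.1, so that its level in Sst cells was 2.08-fold lower. At least 1 GAD1 UMI was found in 42 of 84 Sst cells and 23.9% of non-neuronal cells, and in 19.3% and 8.19% after each cell was thinned to 300 UMIs.

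SST was unevenly spread over Sst cells. At least 1 SST UMI was found in 69 of 84 Sst cells, or 82.1% (72.3 to 89.6), with a median of 4 UMIs and a highest value of 79. The 8 cells with the most SST UMIs held 45.5% of them. Without those 8 cells the ratio to Pvalb cells was 8.57 instead of 14.0. The share of cells with an SST UMI was 31.98% in Pvalb cells, 39.5% in depth-matched glutamatergic cells and 27.0% in non-neuronal cells, which should lack the transcript. After thinning, which left out 1 Sst cell, 5 Pvalb cells, 13 depth-matched glutamatergic cells and 18 non-neuronal cells, these shares were 50.6% in Sst cells, 12.5% in Pvalb cells, 15.0% in depth-matched glutamatergic cells and 12.0% in non-neuronal cells. At equal UMIs per cell the share in Sst cells therefore stood above those in the other 3 groups, which were close to each other. How much of the SST in these 3 groups was background was not tested. The 15 Sst cells with no SST UMI had a median of 1213 UMIs, against 1574 in the other 69. Their summed level of GAD1 and GAD2 was 15.3 (10.1 to 22.05), against 13.5 (11.4 to 15.8) in Sst cells with SST, and their summed level of RELN, COL25A1, TRHDE and CRHBP was 34.9 (26.9 to 44.5), against 29.2 (26.2 to 32.5).

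**Figure D1:**
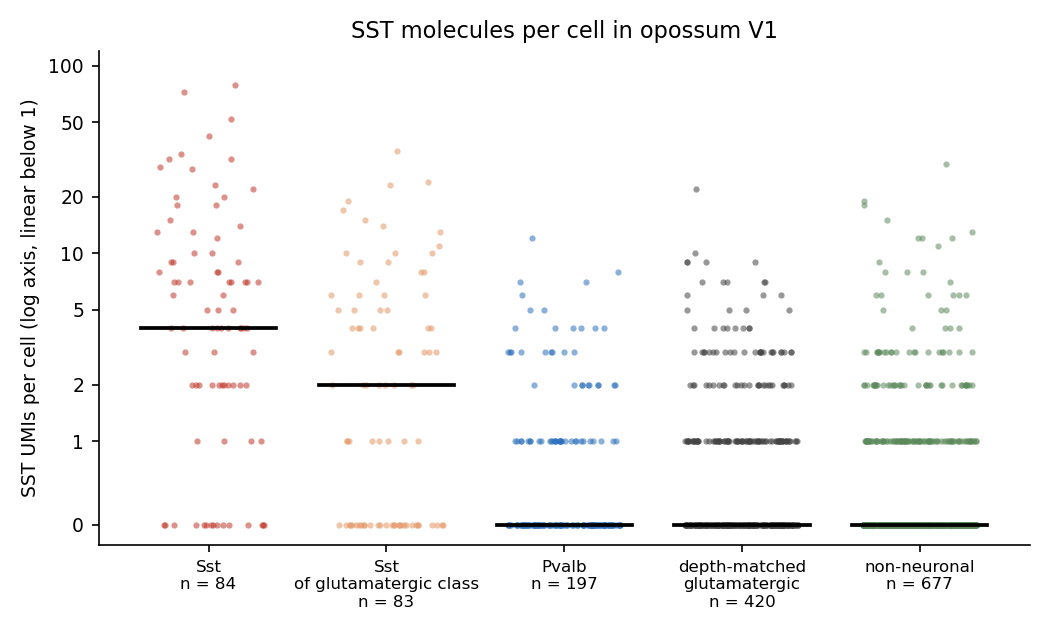
SST UMIs per cell (log axis, linear below 1) in Sst cells of GABAergic class, Sst cells of glutamatergic class, Pvalb cells, depth-matched glutamatergic cells and non-neuronal cells of opossum V1. Each point is 1 cell and each bar a median. The median is 4 in Sst cells, 2 in Sst cells of glutamatergic class and 0 in the other groups, and single cells of every group reach 12 or more.

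The 83 cells with the Sst subclass label and the glutamatergic class label carried SST but little of the GABA-synthesis genes. Their SST level was 36.0 (32.3 to 39.9), between that of the 84 Sst cells and that of depth-matched glutamatergic cells. GAD1 was at 3.06 (2.07 to 4.37) in them, close to 2.44 in depth-matched glutamatergic cells and 2.74 in non-neuronal cells. MGE factors summed to 2.04 (1.25 to 3.15) in them, between 7.08 in the 84 Sst cells and 0.644 (0.458 to 0.880) in depth-matched glutamatergic cells. Glutamate receptor genes summed to 25.6 (22.6 to 29.0), below 49.2 in the 84 Sst cells and 40.8 in depth-matched glutamatergic cells. The summed level of the 12 glutamatergic genes with a symbol in the file was 72.6 (67.4 to 78.2), above 47.8 (44.2 to 51.6) in the 84 Sst cells and 63.5 (61.5 to 65.5) in depth-matched glutamatergic cells. Their median depth of 351 µm was close to 353 µm in the 84 Sst cells. Their median distance to the nearest of those 84 cells was 47.0 µm, and 21.7% lay within 20 µm. For 415 glutamatergic cells matched to them in depth, these values were 68.2 µm and 5.06%. Those 415 cells were drawn after the 420 depth-matched cells had been set aside, for which the values were 52.2 µm and 9.05%. Of the 65 V1 cells with 10 or more SST UMIs, 22 were Sst cells of GABAergic class, 12 were Sst cells of glutamatergic class and 16 had a glutamatergic subclass label. The 84 Sst cells were 1.75% of V1 cells and held 20.3% of V1 SST UMIs.

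The SST level in cells without the Sst label fell with distance from the nearest Sst cell. It was 17.2 (15.5 to 19.1) at 10 to 20 µm, 11.4 (10.2 to 12.7) at 20 to 30 µm and 6.10 (5.30 to 6.98) at 30 to 40 µm. At 50 µm or more it was 3.11 (2.97 to 3.27), so that the nearest of these bands stood 5.53-fold above the farthest. GAD1, by comparison, was at 4.53 (3.66 to 5.54) at 10 to 20 µm and 2.86 (2.72 to 3.01) at 50 µm or more. The decline of SST was also present among cells between the 25th and 75th percentile of Sst cell depth, from 23.5 (20.6 to 26.5) at 10 to 20 µm to 5.76 (5.15 to 6.41) at 50 µm or more, a ratio of 4.07. Only 3 cells lay within 10 µm, too few for a level. The part that RNA spread, cell segmentation and label errors had in this decline was not tested.

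**Figure D2:**
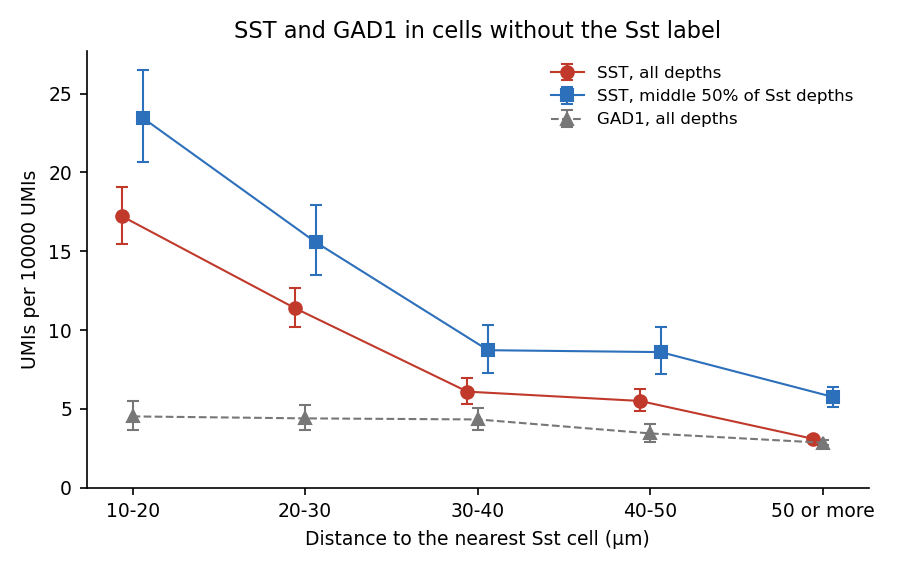
Level of SST in cells without the Sst label (UMIs per 10000 UMIs) against distance to the nearest Sst cell (µm), for all depths (circles) and for the middle 50% of Sst cell depths (squares), with GAD1 at all depths (triangles). Bars are exact 95% Poisson intervals. SST falls from 17.2 to 3.11 over the bands for all depths, and GAD1 from 4.53 to 2.86.

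Sst cells were concentrated in the middle of the cortex. Their median depth was 353 µm on a scale from 0 µm at the top of a region to 773 µm at its base, with an interquartile range of 138 µm. In regions 1, 2 and 3 the medians were 434, 344 and 319 µm and the interquartile ranges were 169, 61.0 and 104 µm. Pvalb cells had a median of 409 µm and an interquartile range of 292 µm, with region ranges of 357, 208 and 345 µm, so that Sst cells were the narrower group in each region. The order of the medians was not shared by the regions, since Sst cells lay 49.6 µm deeper than Pvalb cells in region 1 but 87.8 and 14.6 µm shallower in regions 2 and 3. The median of Sst cells minus that of Pvalb cells was -55.5 µm over all regions, less than the SD of the 3 region differences of 68.7 µm. Without region 2 this difference was -7.76 µm and the interquartile range of Sst cells was 195.8 µm, and without region 1 they were -80.1 and 74.1 µm.

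The band with most Sst cells was also that of IT_B, the glutamatergic neurons that the study matched to layer 4 neurons of the mouse. Between 309 and 387 µm, 1 of 10 equal depth bins, lay 37 Sst cells, or 44.0%, compared with 24 Pvalb cells, or 12.2%. The 3 bins above 232 µm each held 0 to 2 Sst cells and 8 to 14 Pvalb cells. Within the middle 50% of IT_B depths, 313 to 420 µm, lay 38 Sst cells, or 45.2% (34.3 to 56.5), against 19.3% (14.0 to 25.5) of Pvalb cells and 12.7% (11.5 to 14.0) of all glutamatergic cells. Most Sst cells in this bin and in the IT_B range came from region 2, and the shares in regions 1 and 3 were lower than there. The region medians of Sst cells had the same order as those of IT_B cells, which were 415, 381 and 321 µm in regions 1, 2 and 3. SST itself peaked in the same bin in cells without the Sst label, at 11.4 (10.6 to 12.3), and was at 0.945 in the top bin.

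**Figure D3:**
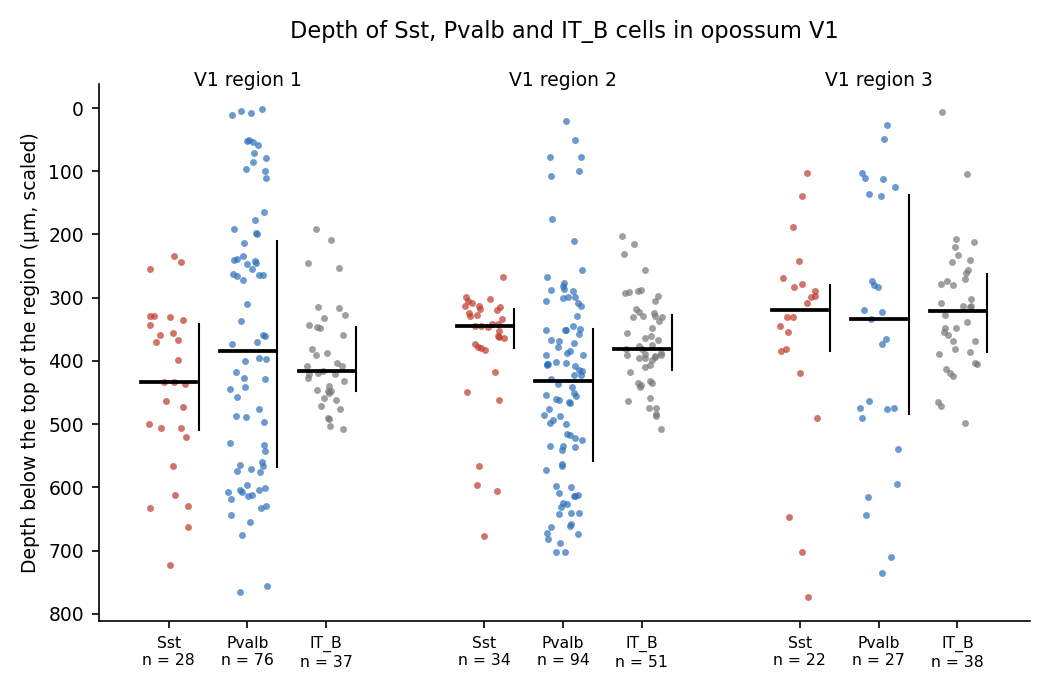
Depth below the top of the region (µm, scaled to the tallest region) of Sst, Pvalb and IT_B cells in each of the 3 opossum V1 regions. Each point is 1 cell, horizontal bars are medians and vertical lines interquartile ranges. Sst cells have medians of 434, 344 and 319 µm and a narrower range than Pvalb cells in each region.

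Sst cells often lay next to each other. The median distance from an Sst cell to the nearest Sst cell was 28.0 µm, at 42.1, 18.5 and 34.6 µm in regions 1, 2 and 3, and 37 of 84 cells had another within 20 µm. Pvalb cells, which were more numerous, had a median of 20.8 µm to the nearest Pvalb cell and 47.2% of cells with another within 20 µm. From Sst cells the nearest Pvalb cell was at a median of 52.0 µm, and 8 of 84 had one within 20 µm. Within 30 µm of an Sst cell, 19.5% of neighbours had the Sst subclass label, against 6.99% around depth-matched glutamatergic cells and 4.06% around Pvalb cells. When Sst cells within 20 µm of each other were joined, the 84 cells formed 61 groups, 47 of them single cells and the largest of 5 cells. Taking the 1 cell with the most UMIs from each group gave an SST level of 54.7 (50.4 to 59.4) and a median depth of 370.4 µm with an interquartile range of 169 µm. Whether neighbouring Sst cells were separate cells or parts of 1 cell was not tested.

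Compared with Pvalb cells, Sst cells had higher levels of RELN, TRHDE, COL25A1, MOXD1 and PNOC and a lower level of ERBB4. Of 5430 genes with at least 20 UMIs over both groups, 361 were at least 2-fold higher in Sst cells (6.65%) and 602 at least 2-fold lower (11.1%), with a median ratio of 0.963. These counts depend on the number of UMIs required of a gene, since 92 and 130 genes passed with at least 50 UMIs and 747 and 1169 with at least 10. The counts over lists below are read against these shares.

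RELN (ENSMODG00000017259), which encodes the secreted glycoprotein reelin, was at 10.3, 5.78 and 9.54 in Sst cells of regions 1, 2 and 3 and at 0.469, 0.546 and 0.256 in Pvalb cells. Its ratio was 16.9 (10.1 to 30.1), and it was found in 51.2% of Sst cells, 6.09% of Pvalb cells and 5.71% of depth-matched glutamatergic cells. TRHDE, an ectoenzyme that degrades thyrotropin-releasing hormone, was at 8.41, 8.41 and 6.72 in Sst cells and at 1.02, 0.655 and 0.768 in Pvalb cells, with a ratio of 10.1 (6.60 to 15.9). The same direction in every region was required of genes named for their ratio. Both genes were spread over many Sst cells, with at most 13 RELN UMIs and 9 TRHDE UMIs in 1 cell. MOXD1, a monooxygenase related to dopamine beta-hydroxylase, had 28 UMIs in 15 Sst cells, at levels of 2.26, 1.23 and 3.53 in the 3 regions. It had none in Pvalb cells, where 0 of 197 allows a share of cells with a UMI of up to 1.52%. Its level in Sst cells was at least 24.4-fold higher against a floor of 3 UMIs over the Pvalb group, and the exact interval of the ratio began at 18.6. PNOC, the precursor of the opioid-related peptide nociceptin, was at 1.64, 1.75 and 3.53 in Sst cells, with 28 UMIs against 6 in Pvalb cells and a ratio of 12.2 (4.95 to 36.0).

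Other genes at the high end rested in part on single cells. COL25A1 (ENSMODG00000020594), a transmembrane collagen, was at 11.5, 6.13 and 5.66 in Sst cells and had a ratio of 8.74 (5.84 to 13.4). One Sst cell held 27 of its 107 UMIs, and without that cell the ratio was 6.60. The adhesion molecule CDH9 had a ratio of 7.68 (4.36 to 14.2), but 24 of its 50 UMIs were in 1 cell and the ratio without it was 4.07. STXBP6, a SNARE-binding protein, had a ratio of 7.18 with 22 of 66 UMIs in 1 cell and of 4.87 without it. ARHGAP18, a GTPase-activating protein, had a ratio of 6.53 (3.03 to 15.2) with 16 of 25 UMIs in 1 cell, and of 2.38 (0.854 to 6.51) without it. ZFPM2, a cofactor of GATA transcription factors, had a ratio of 7.40 and was at 6.36, 5.78 and 1.41 in the 3 regions. The ratios of the sialyltransferase ST6GALNAC5 and the dynein heavy chain DNAH9 were 6.10 (2.20 to 19.4) and 5.94 (2.82 to 13.4).

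ERBB4, a neuregulin receptor, was at 0.410, 7.36 and 2.12 in Sst cells of regions 1, 2 and 3 and at 29.5, 30.1 and 50.2 in Pvalb cells, with no overlap between the groups. Its pooled level was 3.73 in Sst cells and 32.1 in Pvalb cells, 8.61-fold lower (6.49 to 11.7), and 18 of its 50 UMIs in Sst cells were in 1 cell. GRID2IP, a scaffold protein of glutamate receptor synapses, and PDE11A, a cyclic nucleotide phosphodiesterase, had no UMI in Sst cells and 39 and 37 in Pvalb cells. None of 84 cells allows a share of cells with a UMI of up to 3.57%. The 2 genes were at least 4.98-fold and at least 4.72-fold lower in Sst cells against a floor of 3 UMIs over the Sst group, and the exact intervals began at 3.86-fold and 3.65-fold. HAPLN4, a link protein of perineuronal nets, had 1 UMI in Sst cells and 36 in Pvalb cells, a ratio of 0.0726 (0.00179 to 0.431). By staining, the study found these nets enriched around parvalbumin neurons in the mouse but not in the opossum. The actin-binding protein SVIL had 1 UMI against 95, a ratio of 0.0275 (0.000689 to 0.157), and the matrix protein LTBP1 had 2 against 90, a ratio of 0.0581 (0.00693 to 0.216). The other 6 genes at the low end, NDST3, VWC2, PLD5, SLC45A1, EIF3M and CHD8, each had 2 UMIs in Sst cells and 43 to 68 in Pvalb cells, with ratios of 0.0768 to 0.122 and upper limits of at most 0.466.

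Among the lists, Sst cell and subtype genes, which include the label marker SST, had the highest median ratio to Pvalb cells. Of 7 Sst cell and subtype genes with enough UMIs, 5 were at least 2-fold higher and none lower, with a median ratio of 8.74. These were SST, RELN, TRHDE, COL25A1 and ELFN1, a synaptic adhesion protein at a ratio of 2.94 (1.41 to 6.16). The calcium-binding protein CALB1 reached 1.95 (1.24 to 3.02). Of 6 GABAergic identity genes none was higher and 2, GAD1 and ERBB4, were lower. GAD2, the other GABA-synthesising enzyme, was at 6.93 in Sst cells and 9.33 in Pvalb cells, and SLC32A1, the vesicular GABA transporter, at 3.73 and 4.28. None of the 4 MGE transcription factors with enough UMIs passed 2-fold, and LHX6, SOX6 and MAF had ratios of 1.52, 1.70 and 1.31. Of 6 Pvalb cell genes, SYT2, a synaptic vesicle calcium sensor, and HAPLN4 were at least 2-fold lower, and the potassium channel KCNA1 was higher at 2.18 (0.843 to 5.50), an interval that included 1. PVALB itself had no symbol in the opossum table and was not analysed here. Neither of the 2 genes of the caudal ganglionic eminence list with enough UMIs, CCK and CRH, passed 2-fold in either direction.

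Receptor and channel genes past 2-fold went in both directions. GRIK2 and GRIK3, kainate receptor subunits, were the 2 of 11 glutamate receptor genes that were at least 2-fold higher in Sst than in Pvalb cells, and none was lower. GRIK3 was at 4.85 in Sst cells and 1.37 in Pvalb cells, a ratio of 3.54 (2.40 to 5.25), and GRIK2 at 8.87 and 4.14, a ratio of 2.14 (1.67 to 2.75). Both were also higher than in depth-matched glutamatergic cells, at ratios of 2.93 for GRIK3 and 3.14 for GRIK2. Of 7 GABA-A receptor genes 2 were lower than in Pvalb cells, among them GABRB2 at 3.02-fold, and 1, GABRA4, was higher at 3.42 (1.56 to 7.65). Of 10 potassium and HCN channel genes, KCNAB1, KCNAB2 and KCNIP1, which encode auxiliary subunits, were lower (KCNAB2 at 0.475 with an interval of 0.163 to 1.15) and KCNA1, described above, was higher. KCNAB1 was at 0.746 in Sst cells and 4.77 in Pvalb cells, 6.39-fold lower. The peptide receptor genes, including SSTR1, SSTR2, SSTR4 and SSTR5, were too low to compare, with at most 2 UMIs in Sst cells.

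**Figure D4:**
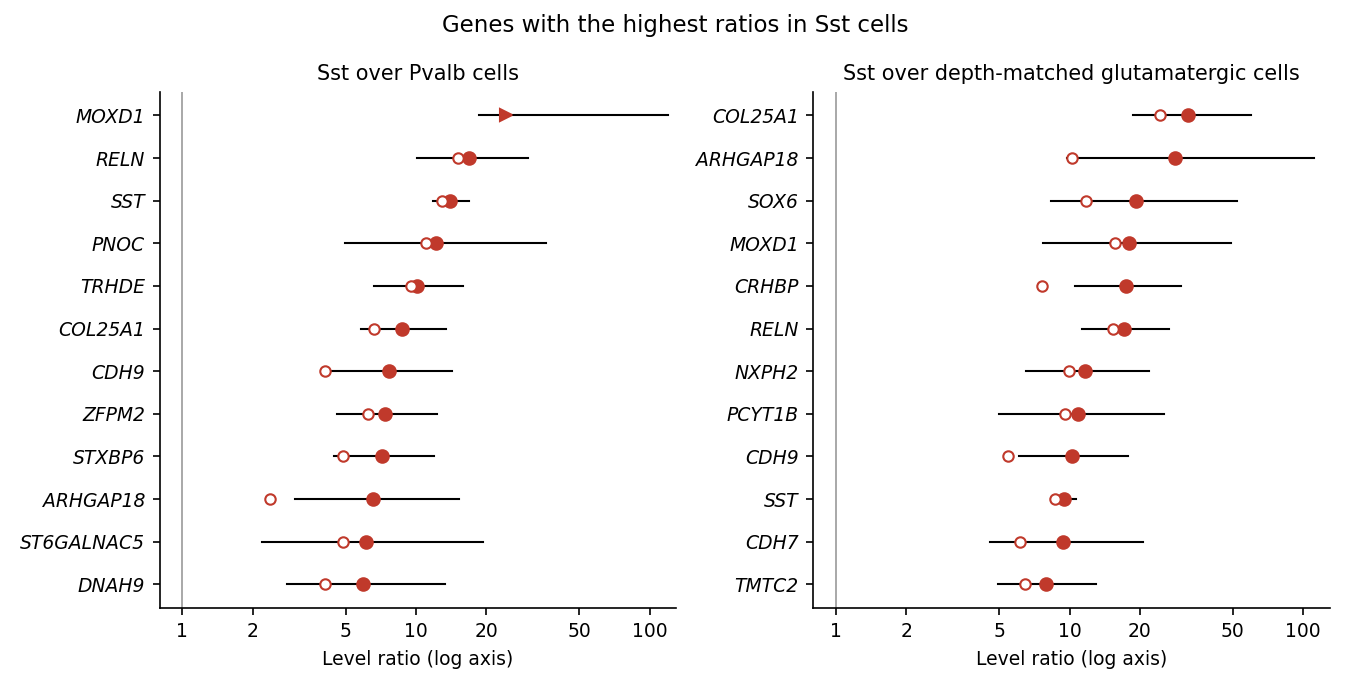
Level ratios (log axis) of the 12 genes with the highest ratios in Sst cells over Pvalb cells (left) and over depth-matched glutamatergic cells (right), with exact 95% intervals. Filled circles use all 84 Sst cells, open circles leave out the Sst cell with the most UMIs of that gene, and the triangle for MOXD1 is the value of 24.4 against a floor of 3 UMIs, with its line drawn from the exact lower limit of 18.6. ARHGAP18 and CDH9 over Pvalb cells, and CRHBP and CDH9 over glutamatergic cells, fall below their intervals without that cell.

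Compared with glutamatergic cells at the same depths, Sst cells were higher in GABAergic, MGE and Sst genes. Of 6829 genes with at least 20 UMIs over both groups, 515 were at least 2-fold higher in Sst cells (7.54%) and 980 at least 2-fold lower (14.4%), with a median ratio of 0.956. All 3 MGE factors with enough UMIs were higher, with LHX6 at 7.52 (3.81 to 15.3), MAF at 7.17 (3.77 to 14.0) and SOX6 at 19.3 (8.33 to 52.2). LHX6 and SOX6 specify MGE-derived interneurons. SOX6 had 30 UMIs in 10 Sst cells, of which 12 were in 1 cell, and its ratio without that cell was 11.7. Of 6 GABAergic identity genes 5 were at least 2-fold higher and none lower, and the sixth, SLC32A1, was at 1.98 (1.39 to 2.78). Of 8 Sst cell and subtype genes 6 were higher and none lower. The GABAergic identity and Sst lists include the label markers GAD1 and SST, so their counts describe the labels.

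COL25A1 was at 11.5, 6.13 and 5.66 in Sst cells of regions 1, 2 and 3 and at 0.277, 0.222 and 0.253 in depth-matched glutamatergic cells, a ratio of 32.2 (18.7 to 59.5). RELN had a ratio of 17.1 (11.3 to 26.7) and MOXD1 of 18.1 (7.71 to 49.0). NXPH2, a neurexophilin that binds neurexins, was at 4.72, 2.45 and 2.47 in Sst cells and 0.461, 0.185 and 0.169 in glutamatergic cells, a ratio of 11.7 (6.54 to 21.8), and was found in 25 Sst cells. The region levels of NXPH2 did not overlap between the groups, although a shared direction had been required for naming it. CRHBP, the binding protein of corticotropin-releasing hormone, had a ratio of 17.4 (10.5 to 30.02), but 44 of its 77 UMIs were in 1 cell and the ratio without it was 7.59. For ARHGAP18, CDH9 and CDH7 the ratios were 28.2, 10.3 and 9.40, and 10.3, 5.44 and 6.15 without the cell that held most of each. PCYT1B, an enzyme of phosphatidylcholine synthesis, and TMTC2 completed the 12 highest, at 10.8 (4.99 to 25.4) and 7.94 (4.94 to 13.0).

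The genes lowest against glutamatergic cells had few UMIs in Sst cells. TRPM3, a cation channel, had 1 UMI in Sst cells and 143 in depth-matched glutamatergic cells, a ratio of 0.0316 (0.000794 to 0.179). NDST3, which modifies heparan sulfate, had 2 against 140, a ratio of 0.0645 (0.00773 to 0.237), and was also at the low end against Pvalb cells. PRR16 was at 0.447 in Sst cells and 3.25 in glutamatergic cells, 7.27-fold lower (3.28 to 20.1). GRM4, a metabotropic glutamate receptor, was 7.68-fold lower (2.56 to 37.8), and EML6, with 3 UMIs against 110, had a ratio of 0.123 (0.0250 to 0.369). For GFRA2, TIAM2, MTSS1, PHLPP1, SLC45A1 and MEIS2 the 1 or 2 UMIs in Sst cells compared with 62 to 81 in glutamatergic cells, at ratios of 0.0717 to 0.146 and upper limits of at most 0.549.

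Glutamatergic genes had lower levels in Sst cells than in depth-matched glutamatergic cells, and their summed level was below that of non-neuronal cells. Of 12 glutamatergic genes, 5 were at least 2-fold lower than in depth-matched glutamatergic cells and none was higher, with a median ratio of 0.600. TLE4 was 2.85-fold lower, SV2B, a synaptic vesicle protein, 2.50-fold and RORB, a layer 4 transcription factor, 2.05-fold lower, while FOXP2, with 4 UMIs in Sst cells, was at 0.463 (0.120 to 1.28). NRGN, a calmodulin-binding protein of pyramidal cells, was at 37.2 (34.0 to 40.6) in Sst cells, 27.5 in Pvalb cells and 45.5 in depth-matched glutamatergic cells. The summed level of the list was 47.6, 43.3 and 57.3 in Sst cells of regions 1, 2 and 3, and 61.3, 59.0 and 77.8 in depth-matched glutamatergic cells. In non-neuronal cells, which should lack these transcripts, it was 59.2 (57.6 to 60.9), above the level in Sst cells. NRGN held 499 of the 641 UMIs of this sum in Sst cells. Whether the level in Sst cells was background was not tested. Against Pvalb cells none of 11 glutamatergic genes passed 2-fold.

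Summed levels of astrocyte and oligodendrocyte genes in Sst cells were below those of non-neuronal cells. The summed level of astrocyte genes was 19.9 (17.6 to 22.4) in Sst cells and 19.3 in depth-matched glutamatergic cells, against 15.4 (14.1 to 16.7) in Pvalb cells and 58.6 in non-neuronal cells, and none of the 8 genes passed 2-fold against glutamatergic cells, or of the 6 with enough UMIs against Pvalb cells. In regions 1, 2 and 3 the astrocyte sum was 20.9, 16.6 and 24.7 in Sst cells and 12.5, 17.3 and 15.9 in Pvalb cells, so that the order turned in region 2. Oligodendrocyte genes were at 34.0 (30.9 to 37.3) in Sst cells, 30.4 in Pvalb cells and 76.1 in non-neuronal cells. CLDN11, a tight junction protein of myelin, was the only gene of this list past 2-fold in either comparison, at 2.49 (1.28 to 4.82) over Pvalb cells and 3.47 (1.84 to 6.47) over depth-matched glutamatergic cells. The endothelial gene FLT1 was at 2.39 (0.958 to 5.93) over Pvalb cells with 11 UMIs, and microglial genes had 4 UMIs in Sst cells, a level of 0.298 (0.0813 to 0.764) against 0.525 (0.383 to 0.702) in non-neuronal cells. In the comparison with glutamatergic cells, 2 of 11 glutamate receptor genes were higher (GRIK2 and GRIK3) and GRM7, a metabotropic glutamate receptor, was 3.40-fold lower. In the same comparison 1 of 9 GABA-A receptor genes was higher (GABRA3, 8 UMIs, at 2.12) and 1 lower (GABRA5, 1 UMI, at 0.156), and 1 of 11 channel genes was higher (HCN2, 9 UMIs, at 2.26) and 1 lower (KCNAB2, 6 UMIs, at 0.451). The intervals of GABRA3, HCN2 and KCNAB2 included 1. Of 6 Pvalb cell genes none was higher and 2, VIPR2 and HAPLN4, were lower, and neither of the 2 genes of the caudal ganglionic eminence list nor FLT1 passed 2-fold.

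With the regions pooled, Sst cells differed with depth in SST itself. Split at 353 µm, the 42 upper cells had an SST level of 86.1 (78.7 to 94.1) and the 42 lower cells of 42.1 (37.7 to 47.0), a ratio of 2.04 (1.77 to 2.36). The ratio was 1.78 without the cell richest in SST and 2.24 when each region was split at its own median. Upper cells of region 2 at 299, 317 and 320 µm held 79, 52 and 72 of the 493 SST UMIs of the upper cells. A ratio without all of these cells was not computed, so the difference rests in large part on few cells. The ratio of 2.24 pools the regions. In region 2 the difference was largest, and in region 3 the upper cells were not higher in SST. CALB1 was at 4.37 in upper and 1.69 in lower cells, a ratio of 2.58 (1.27 to 5.50), and kept this direction under both alternatives, at 2.33 and 2.01. TRHDE was higher in the lower cells, at 10.3 against 5.07, a ratio of 0.493 (0.311 to 0.763), which was 0.525 without the richest cell and 0.436 with the split in each region. ZFPM2, at 0.448, was also higher in the lower cells, and the interval without its richest cell reached 1.02. GAD1 had a ratio of 0.963 (0.618 to 1.49). The intervals of RELN, COL25A1, SOX6, CDH9, ARHGAP18, DNAH9 and CDH7 also lay apart from 1, but not under both alternatives. Among these, direction turned for SOX6, from 4.41 to 0.757 with the split in each region, and for CDH9, from 0.424 to 3.72. Some genes whose pooled interval included 1 also turned. The largest such change was that of CRHBP, from 0.811 to 9.42 (3.31 to 36.9) without its richest cell. The upper cells comprised 8, 20 and 14 cells of regions 1, 2 and 3 and the lower cells 20, 14 and 8, so that depth and region were partly tied in the pooled split.

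**Figure D5:**
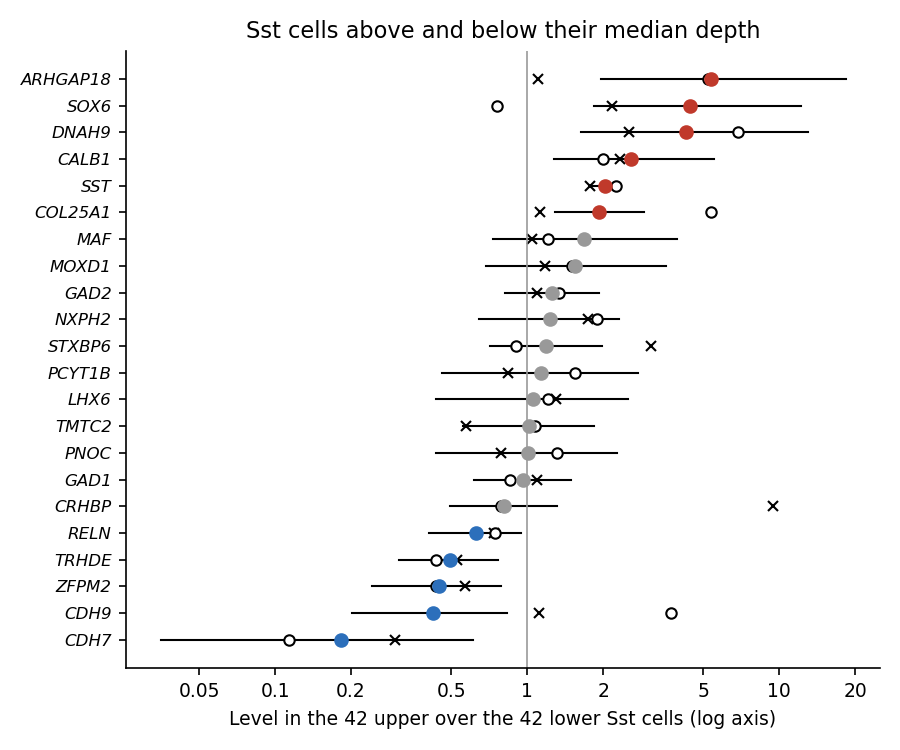
Level in the 42 Sst cells above over the 42 below their median depth of 353 µm (log axis) for 22 listed or named genes with at least 20 UMIs in Sst cells. Filled circles with exact 95% intervals use all 84 cells and are red or blue where the interval lies above or below 1. Open circles split each region at its own median depth and pool the regions, and crosses leave out the cell richest in the gene. SST, CALB1 and TRHDE keep their side of 1 with both.

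Of 17 Sst cell and subtype genes with a symbol, 10 had too few UMIs to compare with Pvalb cells, and 6 of these are described next. NPY, a peptide of long-range and some local Sst cells, had 5 UMIs in Sst cells, all in 1 cell of region 1 at a depth of 723 µm with 29 SST UMIs, 2 CHODL UMIs and no NOS1 UMI. Elsewhere in V1, 6 cells had 1 NPY UMI each. CHODL, a marker of long-range Sst cells, was found in that cell and in 1 other Sst cell, and NOS1 had 3 UMIs in Sst cells. CALB2 had 7, and CBLN4 and HPSE had 1 each. CALB1, by contrast, had 38 UMIs in 22 Sst cells.

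In the mouse sample, 144 cells met the same definition of Sst and 150 that of Pvalb. Values of the mouse are given beside those of the opossum without a test, since each species was 1 animal. The median depth of mouse Sst cells was 435 µm with an interquartile range of 289.6 µm, against 138 µm in the opossum, and mouse Pvalb cells had a median of 425 µm and a range of 282 µm. SST in mouse Sst cells was at 12.8 (11.3 to 14.4), 3.45-fold (2.70 to 4.44) above mouse Pvalb cells, where the opossum ratio was 14.0. RELN had a ratio of 10.2 (4.38 to 28.9) in the mouse and 16.9 in the opossum, and ERBB4 was lower in Sst cells of both, at 0.0797 and 0.116. TRHDE, COL25A1, CDH9 and STXBP6 were also higher in mouse Sst cells, at 2.83, 2.85, 2.31 and 2.57, each with an interval above 1. The other genes lowest in opossum Sst cells had mouse intervals that included 1 or too few UMIs. HAPLN4 was at 0.554 (0.261 to 1.12) and NDST3 at 0.415 (0.0710 to 1.73). VWC2, SLC45A1, EIF3M and CHD8 were at 1.21 to 2.22, above 1 where the opossum ratios were below 1, with intervals that included 1. GRID2IP, PDE11A, SVIL, LTBP1 and PLD5 had at most 2 UMIs in either mouse group. ZFPM2 had a mouse ratio of 0.462 (0.127 to 1.41) with 5 and 12 UMIs, ARHGAP18 of 1.33 (0.338 to 5.51) and DNAH9 of 0.554 (0.0896 to 2.59), and MOXD1 had 1 and 4 UMIs. PNOC had 1 UMI in mouse Sst cells.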

How the data were processed

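Per the study's methods, the authors processed Stereo-seq reads with SAW 7.1.2 against ASM229v1 with Ensembl 110 genes extended at their 3′ ends, segmented cells, kept cells with at least 50 genes and 100 UMIs, and deposited raw UMI counts per gene and cell. Extension can assign reads of a neighbouring gene. The authors transferred labels from single-nucleus data in 3 rounds. V1 depth was computed here from coordinates (2 units per µm) and scaled to the tallest region of each species. Levels are summed counts per 10000 UMIs. Intervals (95%) are exact Poisson for levels, exact Clopper-Pearson for shares and exact conditional binomial for ratios, and cover counting error only. Doublets were not called. Of 30613 features, 11598 had a symbol. Named genes were SST, GAD1, the lists of identity, receptor and channel genes, and the 12 highest and 12 lowest ratios per comparison with a symbol, at least 20 UMIs, a level of at least 1 and the same direction in every region. Some genes that meet these rules are not reported here. The members, lists and rules were chosen with earlier results of these data known. Intervals came from scipy 1.17.1, run in Python 3.11.15 with pandas 2.3.3 for tables, numpy 2.4.6 and, for plots, matplotlib 3.10.9. The scripts were tested on simulated data.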

Additional observations from a re-analysis of the deposited data

Results flagged for a closer look

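ST6GALNAC5, a sialyltransferase, was higher in Sst than in Pvalb cells of the opossum, at a ratio of 6.10 (2.20 to 19.4, 14 against 6 UMIs), and lower in Sst cells of the mouse, at 0.410 (0.177 to 0.875, 10 against 27 UMIs). It stood out because the intervals lay on opposite sides of 1. The difference between species was not tested, since each was 1 animal.

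SST was also present in the opossum sample outside the V1 regions, which no comparison used. There the level was 2.86 per 10000 UMIs (2.83 to 2.90) over 75549 cells, and 239 cells, or 0.316%, had at least 10 SST UMIs, against 65 cells, or 1.35%, in V1. The median UMIs per cell were 839 outside V1 and 1326 inside. Cells outside V1 were not filtered here on genes or UMIs and came from all other tissue of the sample, whereas V1 cells had passed the authors' filter.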

How the results depend on the processing

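Of 126 alternatives for cell number, depth, SST, GAD1 and counts of genes, 93 stayed within the interval, the spread over regions or 1.5 times the count. Only level ratios and the depth difference to Pvalb cells had a direction to turn, and none of these did. For that depth difference the spread over regions, 68.7 µm, was larger than the difference itself, -55.5 µm, so staying within it says little. Its direction in region 1 alone was the opposite, as given above. The split of Sst cells by depth was not among the alternatives, and there several genes turned, among them SOX6, CDH9 and CRHBP, as given above. With the Sst subclass label alone there were 171 cells, at an SST level of 50.3 and a ratio to Pvalb cells of 9.70. Leaving out 1 region at a time gave 50 to 62 cells, an interquartile depth range of 74.1 to 195.8 µm, an SST level of 46.2 to 68.3, 395 to 608 genes lower than in Pvalb cells and a distance ratio of 5.01 to 6.23. Thinned to 300 UMIs, 50.6% of cells had SST, the ratio to Pvalb cells was 11.4, and 48 genes were higher and 112 lower than in Pvalb cells, and 136 and 345 against glutamatergic cells. With every cell weighing the same the SST level was 68.1. Against all glutamatergic cells the SST ratio was 16.2, with 1222 genes higher and 2907 lower, and against cells matched on UMIs it was 16.2. With at least 50 UMIs per gene 92 and 130 genes passed against Pvalb cells and 151 and 357 against glutamatergic cells, and with at least 10 UMIs 747, 1169, 936 and 1618. Chosen after the data were seen, leaving out the 8 cells richest in SST gave 8.57 against Pvalb cells, the middle 50% of depths a distance ratio of 4.07, and 1 cell per group an SST level of 54.7. Without the cell richest in the gene, ratios left their interval for ARHGAP18 (2.38) and CDH9 (4.07) against Pvalb cells and CRHBP (7.59) and CDH9 (5.44) against glutamatergic cells. The causes were not tested. Depth limits genes with few UMIs, and 1 animal gives no error between animals.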
